A study of Mus musculus with 12 samples.

Results

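Genes of bone morphogenetic protein (BMP) and Gdf11 signalling, 10 in number, were followed in the ventral spinal cord of E12.5 mouse embryos that lacked *Isl2* or kept a single working copy of it. They are the ligand genes *Gdf11*, *Bmp2*, *Bmp4*, *Bmp5*, *Bmp6*, and *Bmp7*, the genes of the extracellular inhibitors noggin (*Nog*), chordin (*Chrd*), and follistatin (*Fst*), and the receptor gene *Bmpr1b*, chosen by name as 10 of the 45777 genes listed in the tables. Total RNA was sequenced in 12 libraries, 3 from *Isl2* +/- embryos (Het) and 3 from *Isl2* -/- embryos (KO) at the brachial level and as many of each at the lumbar level. All embryos carried the *Hb9::GFP* reporter, which labels motor neurons (MNs), and the ventral cord was trimmed around its signal, so that the pieces hold MNs together with their neighbouring cells and were not sorted. The KO is a null allele in every cell, and the control is the heterozygote, with no wild type sequenced. The comparisons between genotypes address what the loss of *Isl2* changes, and the comparison between levels addresses how forelimb and hindlimb segments differ.

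BMPs and Gdf11 are secreted ligands of the TGF-β family that bind paired type I and type II serine-threonine kinase receptors and act through Smad proteins. In the developing cord BMPs from the roof plate and overlying ectoderm pattern dorsal cell types, and noggin and chordin bind BMPs and keep them from their receptors. Gdf11 is best known for setting positional identity along the trunk and tail axis, including the *Hox* pattern of spinal MNs, and follistatin binds activins and Gdf11 and blocks them.

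Values are TPM, an abundance in transcripts corrected for gene length and scaled to a fixed library total, here rescaled by a factor for each library that sets its median ratio to the other libraries, gene by gene, near 1. Differences were fitted with limma on log2(TPM + 0.1) for genes with a mean of at least 0.5 TPM over the libraries compared, and p-values were adjusted over all of these genes by the Benjamini-Hochberg method. A gene is said to have risen, fallen, or changed only where its adjusted p was under 0.05. A second, looser rule, called here the threshold of the study, is a log2 difference beyond 0.5 with an unadjusted p under 0.05. The study reported it for genes lower in the KO, from DESeq2. Here it is applied to limma results and in both directions. The sequence behind a library ranged from 4.48 to 6.64 aligned gigabases and was least in brachial KO replicate 3. The lowest correlation between libraries of 1 group, 0.967, was that of brachial KO replicates 1 and 3. No read counts were used here, so the counting error of single values cannot be given. *Isl2* itself was lower in all KO libraries than in all Het libraries of its level, at 4.46 to 7.25 against 8.29 to 9.68 TPM at the brachial level and at 6.51 to 8.21 against 8.40 to 10.3 TPM at the lumbar level. Its log2 difference was -0.61 (limma adjusted p = 0.357) and -0.35 (adjusted p = 0.999) in that order, so it was not called at either level, and 20.1% and 9.94% of all genes were likewise without overlap. At the brachial level *Isl2* passed the looser rule, as 3.08% of all genes did, but not without brachial KO replicate 3 (-0.42) or with TPM as deposited (-0.43). Over both levels the log2 difference of *Isl2* was -0.48 (exact permutation of genotypes within level, p = 0.005, the smallest possible). All 8 MN marker genes of the list used here (*Mnx1*, *Isl1*, *Chat*, *Slc18a3*, *Slc5a7*, *Lhx3*, *Foxp1*, and *Prph*) were above the filter.

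*Gdf11* was the most abundant of the 10 genes, with a mean of 22.0 ± 3.84 TPM (SD, n = 12), and it was above *Bmpr1b*, the next in order, in 12 of 12 libraries. *Bmpr1b* (8.52 ± 2.42), *Chrd* (6.28 ± 1.17), *Bmp7* (5.50 ± 1.20), *Fst* (4.41 ± 1.49), and *Nog* (3.02 ± 0.728) followed with ranges that overlapped from one gene to the next. *Bmpr1b* exceeded *Chrd* in 9 of the 12 libraries and *Chrd* exceeded *Bmp7* in 8. *Bmp6* averaged 1.85 ± 0.461 TPM and was above *Bmp4* in every library. *Bmp4* (0.508 ± 0.430), *Bmp5* (0.361 ± 0.150), and *Bmp2* (0.205 ± 0.104) were the scarcest, and *Bmp4* was above *Bmp5* in only 5 libraries, all of them brachial. *Bmp2* and *Bmp5* were below the filter in all comparisons reported here, so 8 members were tested at the brachial level and over both levels, and 7 at the lumbar level, where *Bmp4* was also below it.

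**Figure D1:**
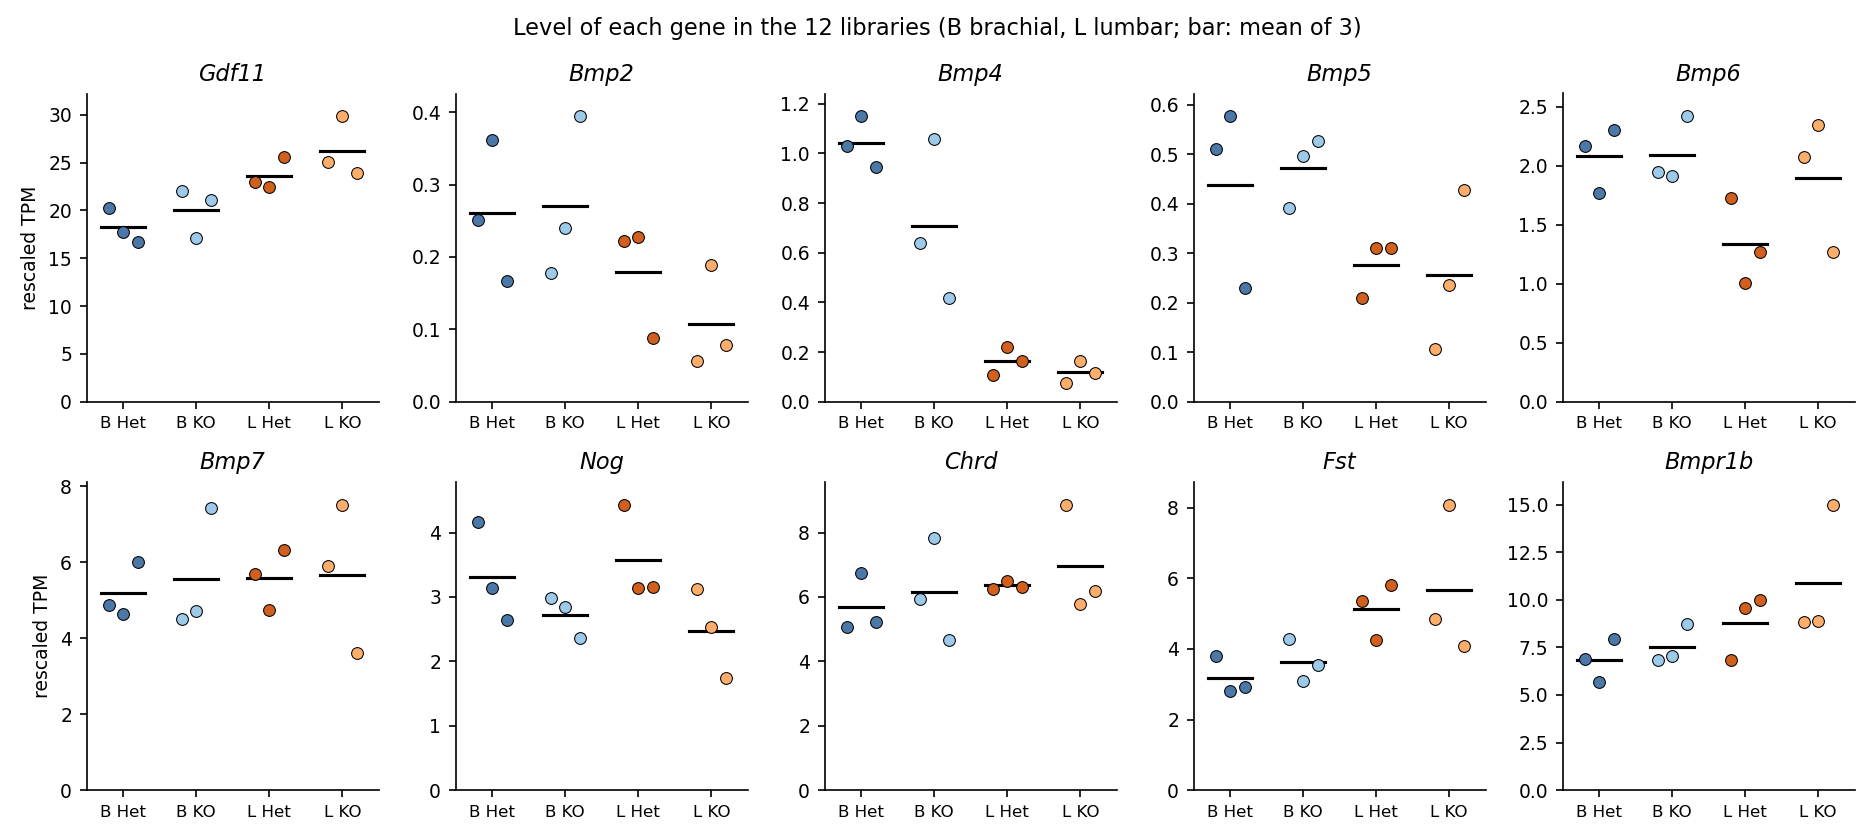
Rescaled TPM of the 10 genes (vertical axis, from 0, one scale per gene) in each of the 12 libraries, with Het and KO at the brachial (B) and lumbar (L) levels along the horizontal axis. Points are libraries and bars are means of 3, and the lumbar libraries lie above the brachial ones for *Gdf11* and below them for *Bmp4*.

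Lumbar cord was compared with brachial cord over all 12 libraries in a fit that also held genotype. Of the 8 members tested, *Gdf11* and *Fst* rose from brachial to lumbar cord. *Bmp4* fell, but it was tested only because its brachial values lifted it over the filter, so its call is given as a description. Over all 16698 genes tested in this comparison, 18.5% changed, 8.91% upward and 9.62% downward. The looser threshold of the study was passed by *Bmp4* and *Fst*, and by 10.3% of all genes. The median log2 difference of the 8 members was 0.12, against 0.01 over all genes.

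*Gdf11* (NCBI Gene 14561, chr10:128880524-128891718, minus strand, GRCm38/mm10) was at 20.3, 17.8, and 16.7 TPM in the brachial Het libraries, 22.0, 17.1, and 21.1 in the brachial KO, 22.9, 22.4, and 25.6 in the lumbar Het, and 25.0, 29.8, and 23.9 in the lumbar KO. All 6 lumbar libraries were above all 6 brachial ones. Its mean was 24.9 ± 2.68 TPM at the lumbar and 19.2 ± 2.26 at the brachial level (SD, n = 6), a log2 difference of 0.38 (SE 0.08, 95% interval 0.21 to 0.56, limma adjusted p = 0.00685). An exact permutation of the level labels within genotype gave p = 0.005, the smallest it can give. The step was 0.37 in the Het and 0.39 in the KO libraries, each without overlap, where 3 against 3 cannot give an exact permutation p below 0.1.

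*Bmp4* (NCBI Gene 12159, chr14:46383525-46390669, minus strand), a ligand of the roof plate and of mesenchyme, went the opposite way. It was at 1.03, 1.15, and 0.947 TPM in the brachial Het libraries, 0.641, 1.06, and 0.419 in the brachial KO, 0.106, 0.222, and 0.163 in the lumbar Het, and 0.074, 0.166, and 0.115 in the lumbar KO. The highest lumbar value lay below the lowest brachial one, which belongs to brachial KO replicate 3. The means were 0.874 ± 0.283 and 0.141 ± 0.0528 TPM (SD, n = 6), 6.21 times higher at the brachial level. The fitted log2 difference was -1.98 (SE 0.25, 95% interval -2.53 to -1.44, limma adjusted p = 0.000436, exact permutation p = 0.005). At such low values the size depends on the added constant, and it was -0.70 with 1 TPM and -2.55 with 0.01 TPM added. *Bmp4* passed the filter narrowly and through its brachial values alone, and it dropped below it when any of 5 of the 6 brachial libraries was left out, all but brachial KO replicate 3. With no filter, where it did not enter through its brachial values, its adjusted p was 0.000603.

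*Gdf11* and *Bmp4* were the 2 of the 10 members whose levels did not overlap, as those of 8.31% of all genes tested did not. The 250 bases before their annotated starts are shown because these are the genes that separate all 12 libraries by level. They come from RefSeq on GRCm38.p6, which gave a promoter for 6 of the 10 members, and are written on the strand of the gene from its 5′ side, with each CG pair in capitals.
Gdf11, chr10:128891719-128891968, minus strand: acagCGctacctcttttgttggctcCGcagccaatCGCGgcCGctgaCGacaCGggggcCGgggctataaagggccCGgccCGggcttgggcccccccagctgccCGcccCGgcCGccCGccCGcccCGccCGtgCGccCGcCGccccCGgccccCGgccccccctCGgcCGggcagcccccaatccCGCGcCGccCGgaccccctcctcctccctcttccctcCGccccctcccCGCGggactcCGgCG
Bmp4, chr14:46390670-46390919, minus strand: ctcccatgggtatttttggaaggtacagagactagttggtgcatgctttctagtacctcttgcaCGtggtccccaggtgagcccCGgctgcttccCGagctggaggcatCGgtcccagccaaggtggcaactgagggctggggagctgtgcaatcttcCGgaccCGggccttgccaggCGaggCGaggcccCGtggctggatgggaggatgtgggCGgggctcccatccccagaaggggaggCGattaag
The *Gdf11* stretch is 81.2% G and C with 33 CG pairs, and that of *Bmp4* is 63.2% with 11, against medians of 52.4% and 6 over the 32851 promoters of the table. At least as many CG pairs as in *Gdf11* were found in 4.03% of all promoters, and at least as many as in *Bmp4* in 35.6%. Neither stretch holds, on either strand, TTTATG, a sequence bound by posterior Hox proteins, TAATTA, a homeodomain core, GGCGCC, bound by Smads of the BMP branch, or GTCTAGAC, the palindrome bound by Smad3 and Smad4. These letters occur in 10.8%, 4.84%, 9.59%, and 0.167% of all promoters.

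*Fst* (NCBI Gene 14313, chr13:114452262-114458989, minus strand) was at 3.80, 2.82, and 2.92 TPM in the brachial Het libraries and 4.27, 3.08, and 3.54 in the brachial KO. In the lumbar cord it was at 5.35, 4.26, and 5.82 in the Het and 4.86, 8.08, and 4.09 in the KO libraries. The highest brachial value, in KO replicate 1, overlapped the lowest lumbar ones, and lumbar KO replicate 2 stood highest. The log2 difference was 0.63 (SE 0.16, 95% interval 0.28 to 0.98, limma adjusted p = 0.0176, exact permutation p = 0.01). Over the 12 libraries *Fst* followed *Gdf11* (Pearson r = 0.94) and ran against *Bmp4* (r = -0.75), as a description over libraries that share their scaling and their levels.

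*Bmpr1b* (NCBI Gene 12167), which encodes a type I receptor for BMPs, missed the threshold. Its values were 6.91, 5.69, and 7.94 TPM in the brachial Het libraries, 6.84, 7.04, and 8.74 in the brachial KO, 6.82, 9.58, and 9.97 in the lumbar Het, and 8.82, 8.86, and 15.0 in the lumbar KO. Lumbar KO replicate 3 stood far above the rest, while lumbar Het replicate 1 was among the brachial values. The log2 difference was 0.42 (SE 0.15, 95% interval 0.09 to 0.74, limma adjusted p = 0.0718, exact permutation p = 0.03), and the adjusted p was 0.0303 without lumbar Het replicate 1.

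The other ligands and inhibitors gave no call between levels. *Bmp6*, at 1.76 to 2.42 TPM in the brachial and 1.01 to 2.35 in the lumbar libraries, which overlap, had a log2 difference of -0.40 (SE 0.18, limma adjusted p = 0.156). *Bmp7* differed by 0.06 (95% interval -0.32 to 0.44), *Chrd* by 0.18 (-0.12 to 0.47), and *Nog* by -0.03 (-0.38 to 0.33). The untested ligands were higher at the brachial level on average, *Bmp5* at 0.455 ± 0.126 against 0.267 ± 0.109 TPM (exact permutation p = 0.055) and *Bmp2* at 0.265 ± 0.0939 against 0.144 ± 0.0778 TPM (exact permutation p = 0.05, SD, n = 6), and the libraries of both genes overlapped. These p-values of single genes are not adjusted.

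**Figure D2:**
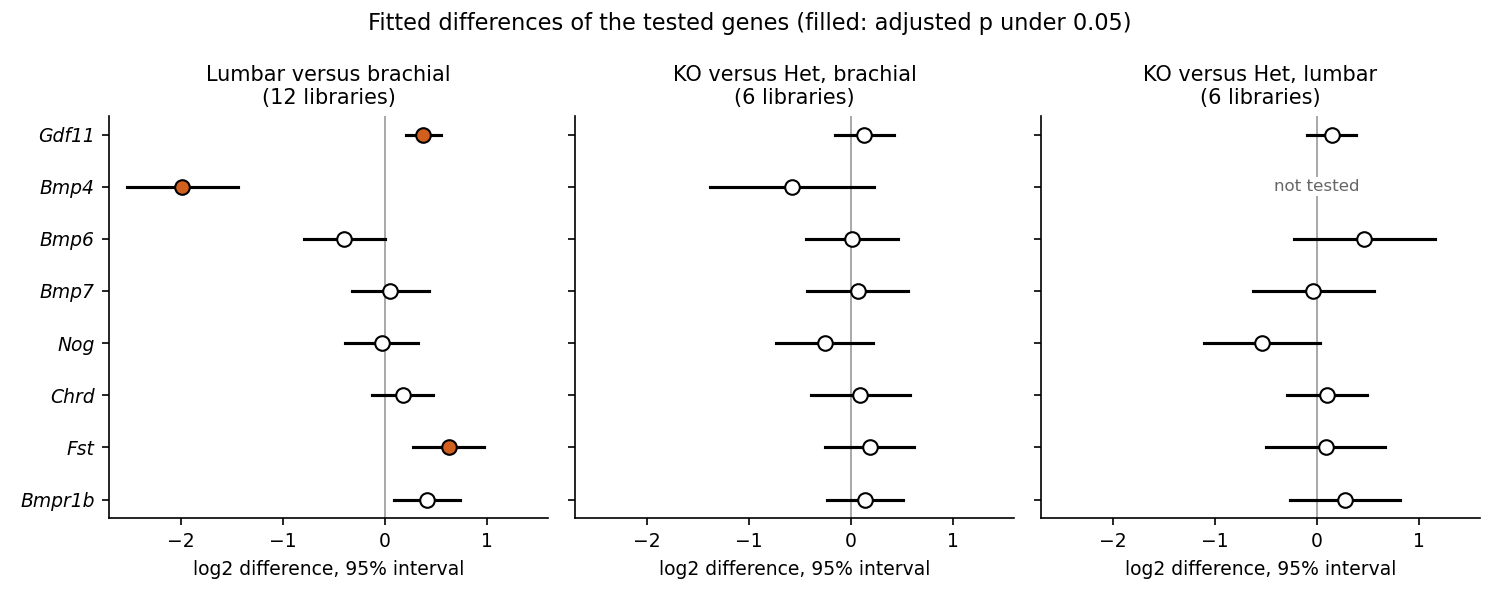
Fitted log2 differences (horizontal axis) with 95% intervals for the 8 tested genes, for lumbar against brachial cord in 12 libraries and for KO against Het at each level in 6. Filled points have an adjusted p under 0.05, and these are *Gdf11*, *Bmp4*, and *Fst* in the comparison of levels, with none in the comparisons of genotypes.

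Scaling matters for the smaller differences. With the TPM as deposited, which shifts the median of all genes to -0.13 between levels, *Gdf11* differed by 0.24 (adjusted p = 0.0582) and *Fst* by 0.49 (adjusted p = 0.0528), so that neither was called. With embryo sex, read from Y-linked genes, as a term, both kept the call.

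Markers of other cells also moved with level. Of 10 genes of mesenchyme and meninges, 6 were tested and 5 fell in the lumbar cord, among them *Pdgfra* and *Pdgfrb*, by 1.47 and by 0.84 on the log2 scale, and none rose. The 4 below the filter, *Col1a1*, *Lum*, *Twist1*, and *Prrx1*, averaged higher in the lumbar libraries, at 12-library means of 0.056 to 0.301 TPM. The summed level of the 10 genes was 73.0 to 97.8 TPM in the brachial and 49.9 to 70.8 in the lumbar libraries. Most of this sum was *Dcn*, at 57.5 to 83.5 and 37.8 to 58.9 TPM in that order. Of 6 endothelial genes, 4 fell, and their sum was 65.1 to 89.1 against 54.3 to 67.0 TPM. None of these genes was at 0 in all libraries. Of 10 roof plate and dorsal genes 5 were tested and *Rspo3* fell, by 1.32 on the log2 scale, while the sums overlapped, at 24.9 to 44.7 against 24.7 to 47.9 TPM. Of 6 genes of Schwann cells and neural crest 4 were tested and *Erbb3* fell, by 1.64, although its lumbar mean of 0.405 TPM was below the filter and it was tested through its brachial values, with sums of 20.0 to 25.0 against 15.2 to 26.0 TPM. The 8 MN markers were divided, 4 with higher and 4 with lower fitted values in the lumbar cord, and of these *Prph* and *Slc5a7* fell, by 2.62 and by 1.10 on the log2 scale. The MN list summed to 454.5 to 521.6 TPM in the brachial and 195.9 to 333.0 in the lumbar libraries, and without *Prph* to 198.4 to 230.8 and 161.7 to 256.7 TPM, which overlap. The lists for floor plate, cartilage, sensory ganglion, erythroid cells, and skeletal muscle had 0 genes called by limma. Fewer cells of a type and less RNA per cell cannot be told apart in these bulk samples, and the part of these cells in the differences of *Bmp4*, *Gdf11*, and *Fst* was not tested.

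**Figure D3:**
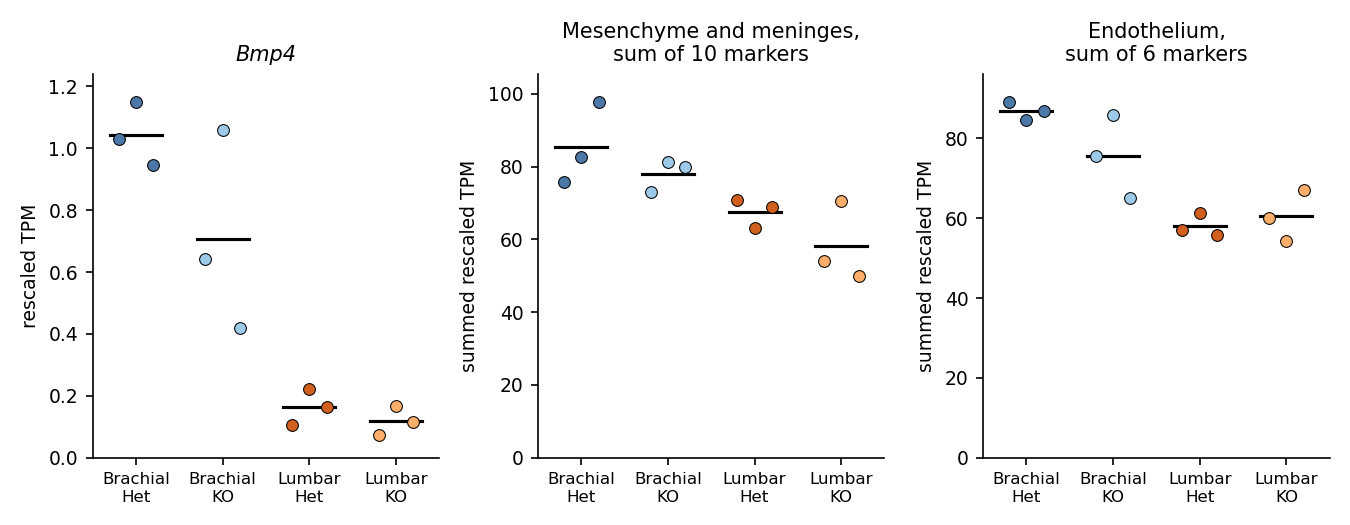
From left to right, rescaled TPM of *Bmp4*, and the summed TPM of 10 markers of mesenchyme and meninges and of 6 markers of endothelium in each library (points, with the mean of 3 as a bar, axes from 0). *Bmp4* and both marker sums are lower in the lumbar groups on average, and most of the mesenchyme and meninges sum is *Dcn*.

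Beyond the 10 members, 75 other genes of the pathway were listed by role, and 55 of them were tested between levels, with a median log2 difference of 0.00 against 0.01 over all genes. Of these, 2 rose and 6 fell, and the 14.5% called were no larger a share than the 18.5% of all genes. Of the genes that fell, *Vwc2l*, *Vwc2*, *Nbl1*, and *Bmper* encode secreted proteins that bind BMPs. *Vwc2l*, one of a pair of chordin-like inhibitors, was at 2.97 to 5.19 TPM in the brachial and 1.05 to 1.65 in the lumbar libraries, a log2 difference of -1.56 (SE 0.15, adjusted p = 5.58e-05). Its relative *Vwc2* fell by 0.60, and *Nbl1*, the inhibitor known as DAN, fell by 1.38 (adjusted p = 0.00767), although its libraries overlapped. *Bmper*, a BMP-binding protein, fell by 0.53, *Fstl5*, a follistatin-like gene, by 0.61, and *Inhbb*, which encodes a subunit of activin and inhibin, by 0.30. The call of *Bmper* (adjusted p = 0.0399) was lost without brachial Het replicate 1 or 2, brachial KO replicate 1 or 2, lumbar Het replicate 3, or lumbar KO replicate 2, with adjusted p from 0.0601 to 0.0967. That of *Vwc2* was lost without brachial Het replicate 2, brachial KO replicate 2, or lumbar Het replicate 3 (0.0518 to 0.068), and that of *Inhbb* was lost without brachial KO replicate 2, lumbar Het replicate 3, or lumbar KO replicate 2 or 3 (0.0537 to 0.0648). With no filter *Bmper* and *Vwc2* also lost the call (adjusted p = 0.0773 and 0.0526).

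The 2 genes that rose encode membrane proteins. *Rgmb*, a BMP coreceptor, was at 60.5 to 80.1 TPM in the brachial and 82.9 to 101.5 in the lumbar libraries, without overlap, a log2 difference of 0.40 (SE 0.06, adjusted p = 0.00114). *Tgfbr1*, a type I receptor through which TGF-β and Gdf11 can act, differed by 0.29 (SE 0.08, adjusted p = 0.019). Both lost the call with TPM as deposited, and *Tgfbr1* also lost it without brachial Het replicate 2 (adjusted p = 0.0522). Of the 7 Smads and 10 response genes tested 0 were called by limma, with 0 of each list at an unadjusted p under 0.05, as 32.2% of all genes were. The eighth listed Smad, *Smad9*, which acts in the BMP branch, was below the filter, at 0.462 to 1.22 TPM in the brachial and 0.0975 to 0.311 in the lumbar libraries, without overlap. With no filter its log2 difference was -1.42 (limma adjusted p = 0.0112). In 7 other settings it passed the filter through its brachial values alone, so its calls there support nothing. *Id4*, a response gene, was called with quantile normalization (-0.14) and with TPM as deposited (-0.20), and *Smurf2* without brachial KO replicate 3 (0.15). These 3 genes are named after their values were seen. The response genes *Id1*, *Id2*, and *Id3*, direct targets of BMP Smads, differed by -0.05, 0.00, and -0.13 on the log2 scale.

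**Figure D4:**
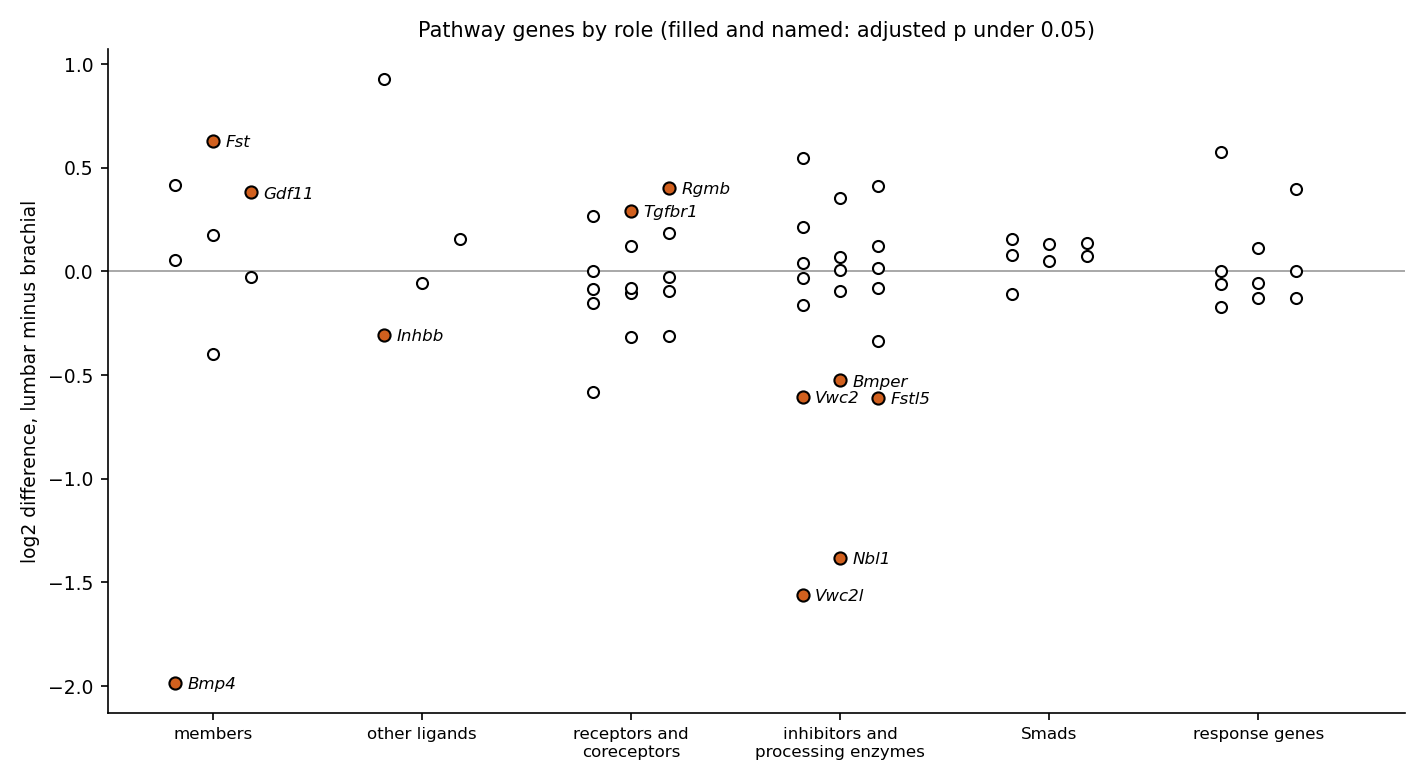
Log2 difference between lumbar and brachial cord (vertical axis) of each tested gene, grouped by role along the horizontal axis, with the side-by-side spread of points only for legibility. Filled and named points have an adjusted p under 0.05, and of the 19 inhibitors and processing enzymes tested 5 are filled, below 0, while 9 of the 19 lie above 0.

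The loss of *Isl2* gave no call among the members. At the brachial level 0 of 8 tested members passed the adjusted threshold, with 0.00596% of 16768 genes doing so, and the lowest adjusted p among the members was 0.427. The threshold of the study was also passed by 0 members, against 3.08% of all genes, and by limma 0 of the 8 had an unadjusted p under 0.05, as 13.9% of all genes had. At the lumbar level 0 of 7 members passed either rule, against 0% and 1.77% of 16620 genes, again with 0 at an unadjusted p under 0.05, against 4.86% of the genes. The 2 comparisons rest on different libraries, and no member had an effect of genotype that differed between levels in a test of the difference itself (lowest adjusted p = 0.812 for the 8 members, 0 of them and 4.42% of all genes at an unadjusted p under 0.05 by limma, and 0% of all genes called). By the threshold of the study 0 members and 2.04% of all genes were past it in that test.

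*Nog* came closest. It was at 4.16, 3.14, and 2.64 TPM in the brachial Het libraries and 2.98, 2.84, and 2.36 in the brachial KO. In the lumbar cord it was at 4.43, 3.14, and 3.16 in the Het and 3.12, 2.53, and 1.75 in the KO libraries, so that the lumbar genotypes did not overlap, by the narrow gap between 3.14 and 3.12. Such a gap was seen in 9.94% of the genes tested at this level, and *Nog* was the only member that showed it. At the brachial level 0 of the 8 tested members were without overlap between genotypes, against 20.1% of the genes. The log2 difference was -0.54 at the lumbar level (SE 0.25, 95% interval -1.11 to 0.03, limma adjusted p = 0.999, exact permutation p = 0.1, the smallest possible) and -0.25 at the brachial level (SE 0.21). Over both levels it was -0.40 (95% interval -0.75 to -0.04, limma adjusted p = 0.334, exact permutation p = 0.05). No member passed the adjusted threshold in that fit, in which 0.0419% of the genes did, and 0 members passed the threshold of the study, as 1.81% of the genes did. *Nog* was the 1 of 8 with an unadjusted p under 0.05, where 14% of all genes were, a share near that of the members. In the lumbar KO all 8 MN markers had lower and all 6 erythroid markers higher fitted values (median log2 differences -0.28 and 0.58), with 0 called by limma, and their part in the *Nog* values was not tested. Without lumbar KO replicate 1 the lumbar difference of *Nog* was -0.72 and past the threshold of the study, and without lumbar KO replicate 3 it was -0.32. Lumbar KO replicate 3, which had the lowest *Nog* and the highest *Bmpr1b*, had the highest roof plate and dorsal sum of the 12 libraries, 47.9 TPM. It also had the lowest sums for MNs (195.9), floor plate (167.0), mesenchyme and meninges (49.9), and Schwann cells and neural crest (15.2 TPM), and the part of this make-up in both genes was not tested.

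For the remaining members the intervals set what a genotype difference could be. *Gdf11* differed by 0.13 in the brachial and 0.15 in the lumbar cord, and by 0.14 over both (95% interval -0.04 to 0.32, limma adjusted p = 0.417). *Bmp4* differed by -0.58 at the brachial level (95% interval -1.38 to 0.23), where brachial KO replicates 1 and 3 lay below all 3 Het libraries and replicate 2 lay among them. Without replicate 2 the difference was -0.88, past the threshold of the study, and without replicate 3 it was -0.30. *Bmp6* was at 1.73, 1.01, and 1.27 TPM in the lumbar Het and 2.08, 2.35, and 1.27 in the lumbar KO libraries, a log2 difference of 0.47 (95% interval -0.23 to 1.16). Without lumbar KO replicate 3, whose value was that of a Het library, it was 0.72, also past the threshold of the study, and without lumbar Het replicate 2 or lumbar KO replicate 2 it was 0.29 or 0.30. Over both levels *Bmp7* differed by 0.02 (-0.36 to 0.40), *Chrd* by 0.10 (-0.20 to 0.39), *Fst* by 0.14 (-0.21 to 0.49), and *Bmpr1b* by 0.21 (-0.12 to 0.54). *Bmp7* ranged within the KO groups from 4.52 to 7.42 TPM in the brachial and from 3.60 to 7.51 in the lumbar cord.

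Of the 75 other pathway genes, 0 passed the adjusted threshold in any comparison of genotypes by limma. At an unadjusted p under 0.05 there were 8 of 56 tested at the brachial level, 1 of 55 at the lumbar level, and 8 of 55 over both levels, shares close to or below those of all genes, 13.9%, 4.86%, and 14%. The threshold of the study was passed at the brachial level by 4 genes, all higher in the KO, where 2.21% of all genes were. Among them were the type II receptors *Acvr2b* and *Bmpr2* and the coreceptor *Rgma*, with log2 differences of 0.60, 0.59, and 0.59 (limma adjusted p = 0.357 for each). Brachial KO replicate 3 had the highest value of each of these 3 genes at its level, and without it 0 of them passed, at 0.33, 0.31, and 0.40 in the same order. *Acvr2b* also missed the threshold without brachial Het replicate 2 or 3, *Bmpr2* without brachial Het replicate 1 or 3 or brachial KO replicate 2, and *Rgma* without brachial Het replicate 3, at log2 differences between 0.37 and 0.63. *Acvr2b* and *Bmpr2* missed it with no filter, and *Bmpr2* with quantile normalization and with embryo sex as a term, at sizes that stayed past 0.5. All 6 erythroid and all 6 floor plate markers also had higher fitted values in the brachial KO (median log2 differences 0.49 and 0.22), with 0 called by limma. The erythroid sum was 1948 to 3510 TPM in the brachial Het libraries and 2775, 3164, and 5904 in KO replicates 1 to 3, and the floor plate sum was 183.3 to 198.1 and 197.8 to 238.8 TPM. Brachial KO replicate 3 had the highest of both sums at its level, and the part of these cells in the values of *Acvr2b*, *Bmpr2*, and *Rgma* was not tested. At the lumbar level and over both, 1 listed gene was past it, where 0.981% and 1.22% of all genes were past it upward. *Id1*, *Id2*, and *Id3* differed between genotypes by -0.07, 0.05, and 0.00 over both levels.

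The genes whose log2 values ran most like each member over the 12 libraries were sought among 13270 protein-coding genes, as a description. The values given are the highest of that many correlations, over only 12 libraries that share their scaling and their levels. High values can arise in such a search without any tie to the member, and no test was run. For *Gdf11* they were *Ttc8* (Pearson r = 0.98) and *Ccdc182* (0.97), and for *Bmp4* they were *Lgals1* (0.98) and *Lamb1* (0.97), which encode galectin-1 and a laminin chain. *Fst* was most like *Rtkn* (0.96) and *Bmpr1b* like *Cep128* and *Zfp91* (both 0.96). For *Bmp7* the highest were *Fzd7* and *Dbx2* (both 0.90), for *Nog* *Xbp1* and *Nyap1* (both 0.88), for *Bmp6* *Cdkn1a* and *Ehhadh* (both 0.85), and for *Chrd*, with the lowest maxima, *Appl2* and *Rundc1* (0.81 and 0.77).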

How the data were processed

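Bulk RNA-seq of 12 ventral spinal cord libraries was analysed. Trimming by the authors used Trimmomatic 0.38, mapping to mm10 used HISAT2 2.1.0 and Bowtie2 2.3.4.1, and abundances came from StringTie 2.1.3b. The deposited TPM values, from the authors' StringTie run, sum to a fixed total in each library, and the deposited FPKM values are a constant multiple of them in each library. The deposited coverage, the mean read coverage per gene, was used with FPKM to read the aligned bases. Without counts the DESeq2 analysis of the study and the planned count tests could not be run, and limma was used.

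Symbols for 45679 of 45777 NCBI identifiers came from RefSeq GRCm38.p6, and 96.4% had identical coordinates there. Size factors from the median of ratios over 12 libraries were applied to the TPM, because 5 small RNA genes held 23.7% to 38.2% of TPM. Log2(TPM + 0.1) was fitted with limma 3.58.1 in R 4.3.3 (eBayes with trend) where the mean over the libraries fitted reached 0.5 TPM. Permutation tests were exact and two-sided. The fits were tested on simulated data. Tables and plots used Python 3.11.15, pandas 2.3.3, and matplotlib 3.10.9.

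The members and lists were chosen with earlier results of these data known. All members are named, with listed pathway genes past a threshold (for genotypes also that of the study), *Id1* to *Id3*, and the 2 protein-coding genes most correlated with each tested member. Of the genes this rule names, 2 are not reported here, and counts include them. The study states 3 animals of each genotype, but Y-linked genes were present in 2 of 3 brachial and 1 of 3 lumbar Het libraries. It is not stated which libraries share an animal, so p-values measure the spread between these libraries. The alternatives were other added constants, filters, scalings, FPKM, protein-coding genes only, eBayes without trend, the replicate number as a block, 1 fit for all libraries, leaving out each library, and, added after seeing the data, embryo sex.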

Additional observations from a re-analysis of the deposited data

How the results depend on the processing

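Of 1201 values of 58 gene results under other settings, 1100 kept their direction and their side of the threshold, 48 reversed, 51 lost a call, and 2 gained one. All values of *Gdf11* and *Fst* between levels kept their direction, and calls of *Gdf11* and *Fst* were lost only with TPM as deposited. *Bmp4* was above the filter in 16 of 23 other settings of that comparison, and since this rests on its brachial values, its calls there are no measure of stability. Without counts, the tests planned for counts were not run, and the depth behind low values such as those of *Bmp4*, *Bmp2*, and *Bmp5* is not known per gene. The causes of the changes below were not tested.

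Members past the adjusted threshold between levels fell from 3 to 1 with TPM as deposited. By the study's threshold they went from 2 to 4 with no filter and to 1 with a filter at a mean TPM of 1 or with FPKM, where *Bmp4* was not tested. At the lumbar level members past the study's threshold went from 0 to 1 (*Nog*) with protein-coding genes only, with the replicate block, and with all 12 libraries in one fit. Other pathway genes past it at the brachial level went from 4 to 2 with quantile normalization and to 1 without a trend. At the lumbar level they went from 1 to 2 with no filter, and over both levels from 1 to 2 with no filter or with TPM as deposited. Leaving out each library gave 2 to 4 members past the adjusted threshold between levels, 1 to 3 past the study's, and 5 to 11 pathway genes past the adjusted threshold. For genotypes it gave 0 to 1 members past the study's threshold at each level, 0 to 6 pathway genes at the brachial level, and 0 to 1 at the lumbar level.

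Whether replicate numbers pair the libraries of both levels is not stated, and the main fits did not pair them. Same-numbered libraries of unlike embryo sex cannot share an animal. Same-numbered Het and KO libraries deviated from their group means with correlations of 0.0801, 0.229, and 0.00956 at the brachial and 0.144, -0.209, and -0.0937 at the lumbar level. Between levels they were -0.0224, 0.197, and 0.338 in the Het and 0.0305, -0.214, and 0.0712 in the KO, and 3 of these 6 pairs were of the same embryo sex, Het replicates 2 and 3 and KO replicate 1. With the replicate block, pathway genes past the study's threshold at the brachial level went from 4 to 1, those past the adjusted threshold between levels from 8 to 5, and *Bmpr1b* passed it (adjusted p = 0.0388), while *Bmper*, *Inhbb*, and *Vwc2* did not (0.056, 0.0791, and 0.0691).

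Signs that reversed all belonged to small differences that were not called. With quantile normalization these were *Bmp6* by genotype at the brachial level (-0.066), *Bmp7* by genotype over both levels (-0.015), and *Nog* between levels (0.024). With TPM as deposited they were the lumbar minus brachial effects of genotype on *Bmpr1b* (-0.026), *Chrd* (-0.15), and *Gdf11* (-0.15), and *Bmp7* between levels (-0.081). With embryo sex as a term they were *Bmp7* by genotype at the lumbar level (0.14), the lumbar minus brachial effects on *Bmp7* (0.067) and *Chrd* (-0.084), and *Bmp7* between levels (-0.028). Leaving out each library gave differences by genotype at the brachial level from -0.098 to 0.085 for *Bmp6*, -0.16 to 0.20 for *Bmp7*, and -0.096 to 0.27 for *Chrd*. At the lumbar level they ran from -0.26 to 0.26 for *Bmp7*, -0.085 to 0.22 for *Chrd*, and -0.19 to 0.29 for *Fst*, and over both levels from -0.087 to 0.15 for *Bmp7*. The lumbar minus brachial effects ran from -0.33 to 0.19 for *Bmp7*, -0.11 to 0.27 for *Bmpr1b*, -0.18 to 0.20 for *Chrd*, -0.38 to 0.11 for *Fst*, and -0.099 to 0.084 for *Gdf11*. Between levels *Bmp7* ran from -0.041 to 0.19 and *Nog* from -0.12 to 0.085.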
